A study of Mus musculus with 6 samples.

Results

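Cathepsins are the proteases of the lysosome, the acidic compartment in which cells break down protein, and cystatin C is a secreted inhibitor of the cysteine type among them. The genes described here are Ctss, Ctsb, Ctsl, Ctsz, Ctsc, Ctsh and Ctsf, which encode cysteine cathepsins, Ctsd, which encodes an aspartic protease, Ctsa, which encodes a serine carboxypeptidase, and Cst3, which encodes cystatin C. Their members were all probe sets that the platform annotation assigns to exactly 1 of these 10 symbols, which gave 22 of the 45101 probe sets in the table, and all 10 genes were found. Of the 22, 18 passed a filter on low signal and were tested, with at least 1 for each gene, and 4 lay below it.

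RNA was taken from motor neurons of the mouse brainstem and measured on 1 Affymetrix array per RNA sample. The samples were 3 from SOD1 mice and 3 from wild type (WT) mice, named by genotype and number. SOD1 encodes copper-zinc superoxide dismutase, an antioxidant enzyme, and SOD1 mice are used as a model of amyotrophic lateral sclerosis. The allele, strain, promoter, age, and the number of animals behind each RNA sample are not stated in the labels. All 6 samples went through the same double amplification with T7 polymerase. The labels do not say that the replicates are separate animals, so the p-values measure the spread between these RNA samples, which may be partly technical.

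The arrays had median signals of 267 to 300.3 in SOD1 and 301.3 to 315.1 in WT, and their number limits the precision. Of the 13 motor neuron markers on the array, 12 were tested, and no probe set of these was at the background level on any array. The RNA also held transcripts of other cells, among them 18 tested microglial markers. Xist was high on SOD1 replicates 1 and 2 (12.83 and 12.91, log2 signal) and low on SOD1 replicate 3 (5.71), against 5.76 to 7.07 on the WT arrays, so 2 of the SOD1 arrays differ from the others in this sex-linked transcript, and sex and genotype are partly confounded.

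As background, cathepsins are made as inactive precursors, sorted to the lysosome and activated there by cleavage. Most, such as those of Ctsb, Ctsd and Ctsl, are made by nearly all cells including neurons, whereas cathepsin S is made chiefly by microglia and other antigen-presenting cells, where it trims the invariant chain of MHC class II and stays active at neutral pH. Cystatin C is abundant in the central nervous system and is secreted by several of its cell types.

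The promoters of the genes are shown for those most relevant to the values that follow: Ctss and Ctsc, the members with the largest estimates, Cst3, the inhibitor, and Ctsd, whose upstream region held 2 copies of the lysosomal element. The RefSeq table (GRCm38.p6) held entries for 8 of the 10 genes, with 9 starts in all. Ctss lies on the plus strand at chr3:95526536-95526785, Ctsc on the plus strand at chr7:88277835-88278084, Cst3 on the minus strand at chr2:148875513-148875762 and Ctsd on the minus strand at chr7:142387828-142388077. Each line gives the 250 bases before the annotated start, 5′ to 3′ on the strand of the gene. Capitals mark a match, on either strand, to one of 4 motifs: CACGTG, the core of the CLEAR element of lysosomal genes; GAGGAA, the core of sites of the myeloid factor PU.1; GGGCGG, the GC box; and TATAAA, the TATA box.
Ctss: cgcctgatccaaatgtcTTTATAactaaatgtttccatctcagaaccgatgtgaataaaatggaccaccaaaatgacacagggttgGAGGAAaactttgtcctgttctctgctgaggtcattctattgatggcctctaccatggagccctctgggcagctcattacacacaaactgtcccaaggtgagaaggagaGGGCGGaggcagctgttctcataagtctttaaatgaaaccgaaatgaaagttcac
Ctsc: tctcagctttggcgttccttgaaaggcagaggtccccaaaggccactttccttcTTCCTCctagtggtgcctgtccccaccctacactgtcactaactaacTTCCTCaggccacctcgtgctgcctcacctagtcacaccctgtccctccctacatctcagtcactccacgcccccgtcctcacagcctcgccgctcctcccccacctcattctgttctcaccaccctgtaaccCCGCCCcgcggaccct
Cst3: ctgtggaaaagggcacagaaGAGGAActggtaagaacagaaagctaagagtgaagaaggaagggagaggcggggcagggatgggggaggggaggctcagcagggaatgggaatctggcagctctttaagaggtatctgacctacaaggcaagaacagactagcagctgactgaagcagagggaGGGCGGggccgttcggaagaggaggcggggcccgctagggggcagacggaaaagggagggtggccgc
Ctsd: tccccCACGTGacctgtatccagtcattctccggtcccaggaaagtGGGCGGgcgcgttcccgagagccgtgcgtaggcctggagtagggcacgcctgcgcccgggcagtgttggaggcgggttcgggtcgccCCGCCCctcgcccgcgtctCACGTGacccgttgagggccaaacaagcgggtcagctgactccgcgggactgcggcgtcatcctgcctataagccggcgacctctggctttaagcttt

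CACGTG was found before 4 of the 9 starts, those of Ctsd, Ctsl, Ctsf and 1 of the 2 starts of Ctsa, and before 6.02% of the 32851 starts in the table. GAGGAA was found before 3 of the 9, those of Ctss, Ctsc and Cst3, against 23.3% of all. The GC box was found before 6 (32.7% of all) and TATAAA before 1, that of Ctss, on the opposite strand and 233 bases before the start (12.4% of all). The only matches that overlapped were the 2 GC boxes of Ctsz, by 1 base. The upstream regions shown differ in base composition, with 44.8% G and C for Ctss, 60.4% for Ctsc, 59.6% for Cst3 and 67.2% for Ctsd, and a match is a description of the letters, not a measured site. The starts are those of the table and were not checked against another annotation, and those of Ctsl and the first of Ctsa are in doubt. The Ctsl region ends in a pyrimidine run and the letters CAG, as introns do. Without these, CACGTG was found before 3 of 7 starts.

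**Figure D1:**
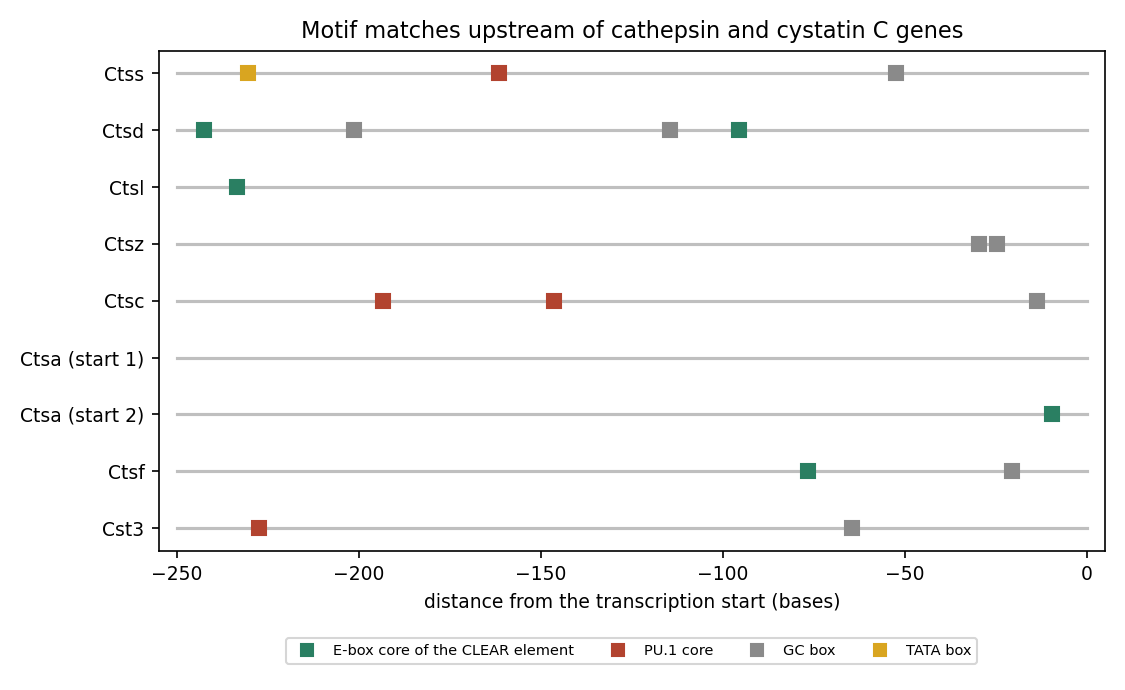
Matches to 4 motifs in the 250 bases before each of 9 annotated starts (x axis, distance from the transcription start in bases; each row is a start, each square a match on either strand). CACGTG, in green, lies before Ctsd, Ctsl, Ctsf and the second start of Ctsa, and GAGGAA, in red, before Ctss, Ctsc and Cst3.

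Cathepsin S was the member that rose in SOD1. Its probe set gave 15.98, 15.10 and 15.24 on SOD1 replicates 1, 2 and 3, against 13.49, 12.73 and 11.91 on WT replicates 1, 2 and 3 (log2 of the quantile-normalised signal plus 16, as for all levels here). The 3 SOD1 arrays all lay above the 3 WT arrays, and the lowest SOD1 value exceeded the highest WT value by more than the SD of either group. The deposited signals behind these were 65280, 36036 and 40671 in SOD1 and 11590, 6854 and 3970 in WT. The means were 15.44 ± 0.48 in SOD1 and 12.71 ± 0.79 in WT (SD, n = 3), a 6.63-fold rise with a 95% interval of 3.88 to 11.3 (log2 difference 2.73 ± 0.35 (SE), limma, adjusted p = 0.0267). In bulk RNA, more cells of a type and more RNA per cell cannot be told apart.

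Among the 18 member probe sets tested, 1 rose and 0 fell at an adjusted p under 0.05, where 0.0629% of all 27022 probe sets tested rose and 0.122% fell (17 and 33 probe sets). At an unadjusted limma p under 0.05, 7 of the 18, or 38.9%, were higher in SOD1 and 0 lower, against 7.1% higher and 7.56% lower of all probe sets tested. These 7 belonged to 6 genes: Ctss, Ctsl, Ctsz, Ctsc, Ctsb and Cst3. With no filter, 7 of the 22 member probe sets were higher at that level, against 5.54% of all, and 1, of Ctsc, was lower. The median log2 difference of the 18 was 0.47, against -0.01 over all probe sets tested, with 13 estimates above 0 and 5 below. That median was 0.18 without WT replicate 3. It was 0.13 over the 11 probe sets left without those whose names end in _a_at, _s_at or _x_at. These 11 held 5 of Ctsb and none of Ctsd, Ctsl, Ctsz or Cst3, so this median covers other genes than that of the 18. Of these suffixes, _s_at and _x_at mark possible cross-hybridisation. The count of 7 was 3 without SOD1 replicate 1 (against 6.94% of all), without SOD1 replicate 3 (4.83%) or with no variance trend (5.86%). It was 4 without WT replicate 1 (6.55%), 3 of those 11 probe sets (5.91%) and 5 with a term for Xist (5.74%). It was 8 with values as deposited (6.68%) or median centring (9.66%). It was 9 without SOD1 replicate 2 (5.48%), without WT replicate 2 (5.09%) or with array weights (7.5%). The groups did not overlap, with SOD1 higher, for 5 of the 18, against 10.5% of all probe sets, and with SOD1 lower for 0, against 9.81%.

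The call for Ctss depended on how the spread was estimated and on single arrays, although its estimate stayed between 2.33 and 3.12 in every setting tried. It had adjusted p = 0.315 without the variance trend, adjusted p = 0.0897 with a term for Xist (2.52 ± 0.52), and adjusted p of 0.0554, 0.0765 and 0.129 without SOD1 replicate 1, SOD1 replicate 2 or WT replicate 2 (all limma).

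**Figure D2:**
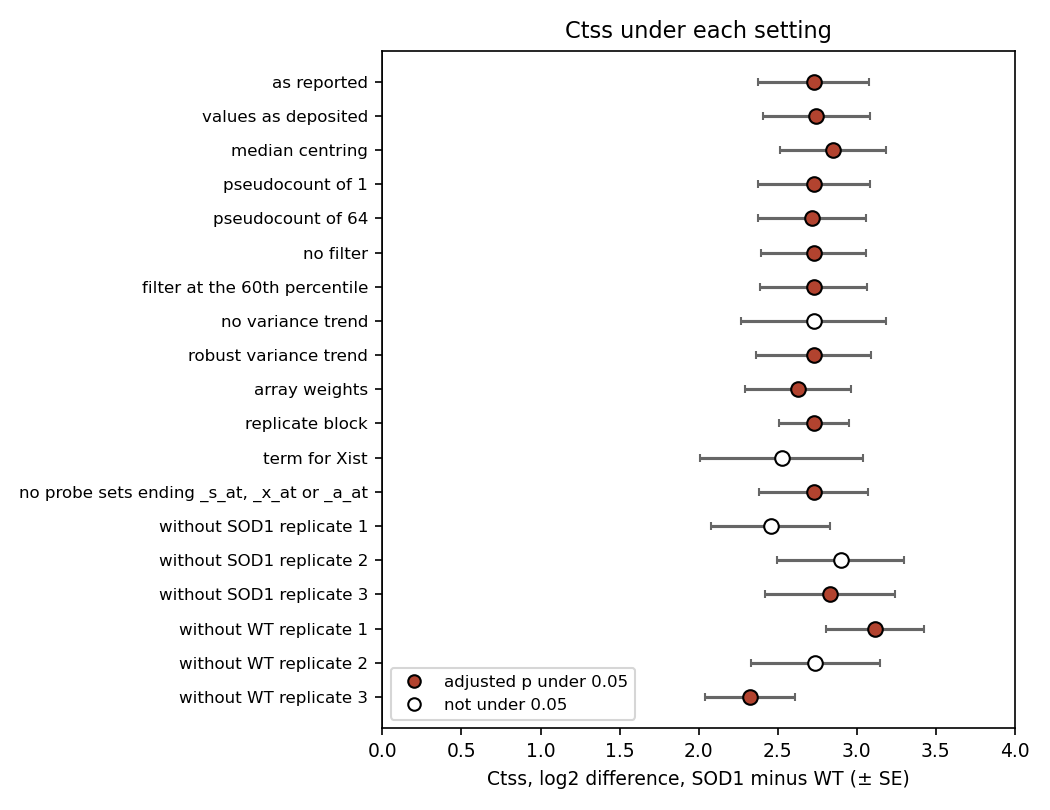
Log2 difference of Ctss, SOD1 minus WT, with its SE (x axis) in each setting (rows). Filled points had a limma adjusted p under 0.05. The estimates lie between 2.33 and 3.12, and the call is lost in 5 of the settings drawn.

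The other cysteine cathepsins had smaller or less certain differences, and none passed the test over all probe sets. Ctsl, which encodes cathepsin L, an endopeptidase of most cells, gave 15.00, 14.58 and 14.96 in SOD1 and 14.32, 14.22 and 14.26 in WT. The groups did not overlap, and the WT arrays were close together (SD 0.05). The difference was 0.58 ± 0.15, 1.5-fold with an interval of 1.18 to 1.89 (limma, adjusted p = 0.143). A second Ctsl probe set lay below the filter, at or under background on 2 SOD1 and 3 WT arrays, and gave 1.06 ± 0.75 in a fit with no filter.

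Ctsz encodes cathepsin Z, a carboxypeptidase found in myeloid cells. Its 3 probe sets gave estimates of 0.86 ± 0.33, 0.82 ± 0.31 and 0.64 ± 0.33 (log2 difference, SE). The first of these, with the highest signal, read 13.69, 12.26 and 13.11 in SOD1 and 11.89, 12.32 and 12.27 in WT. The second read 12.94, 11.73 and 12.70 in SOD1 and 11.56, 11.77 and 11.60 in WT. SOD1 replicates 1 and 3 lay above all WT arrays, and SOD1 replicate 2 lay within the WT range, on each of the 3 probe sets. The limma adjusted p-values were 0.263, 0.267 and 0.394. The 3 probe sets share a target, and 2 of them carry suffixes that mark possible cross-hybridisation, so they are not independent readings.

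Ctsc encodes cathepsin C, or dipeptidyl peptidase I, which activates granule proteases of immune cells. Its tested probe set gave 12.18, 11.62 and 11.31 in SOD1 and 11.05, 10.03 and 6.26 in WT. All SOD1 arrays were higher than all WT arrays, but WT replicate 3 was at the background level and 3.77 below the next WT array, so the WT spread was wide (SD 2.52, against 0.44 in SOD1). The difference was 2.59 ± 0.93, with an interval of 0.55 to 4.64 (limma, adjusted p = 0.239), and without WT replicate 3 it was 1.16. Of 2 further Ctsc probe sets, below the filter, 1 was at background on 2 SOD1 and 2 WT arrays and the other on 3 SOD1 arrays and 1 WT array. In a fit with no filter both went the other way, at -1.21 ± 0.87 and -1.67 ± 0.74. The interval of the second was -3.28 to -0.06, and its SOD1 arrays all lay below its WT arrays.

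Ctsh encodes cathepsin H, an aminopeptidase. It read 11.01, 10.61 and 10.93 in SOD1 and 10.46, 10.92 and 8.13 in WT. WT replicate 3 again stood below the other 5 arrays, which spanned 0.55. The difference of 1.01 ± 0.60 (limma, adjusted p = 0.464) became 0.16 without WT replicate 3. The second probe set of the gene had nearly the same values, at 1.02 ± 0.61 with all arrays and 0.16 without that array.

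Ctsb encodes cathepsin B, one of the most abundant lysosomal proteases of neurons and glia. Its probe set with the highest signal read 15.95, 15.47 and 15.76 in SOD1 and 15.72, 15.95 and 15.55 in WT. The groups overlapped fully, and the difference was -0.01 ± 0.15, with an interval of -0.34 to 0.31 (limma, adjusted p = 0.976). Its sign turned with the scaling: it was 0.21 after median centring and 0.10 where no further scaling was applied. The 5 Ctsb probe sets did not move together. One read 12.46, 12.26 and 12.93 in SOD1 and 11.55, 11.96 and 11.91 in WT, without overlap, a difference of 0.74 ± 0.26 (limma, unadjusted p = 0.0146, adjusted p = 0.229). The other 3 differed by -0.48 ± 0.28, 0.13 ± 0.46 and 0.14 ± 0.60.

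Ctsf, which encodes cathepsin F, read 11.46, 11.07 and 11.23 in SOD1 and 11.16, 11.53 and 11.62 in WT, a difference of -0.18 ± 0.27 (interval -0.78 to 0.41). The groups overlapped. A second Ctsf probe set was below the filter and at background on 2 SOD1 and 3 WT arrays, and gave 1.10 ± 0.85 in a fit with no filter.

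The members of the other catalytic types did not pass the test either. Ctsd encodes cathepsin D, the main aspartic protease of the lysosome. It read 16.10, 15.46 and 15.63 in SOD1 and 15.18, 15.43 and 15.63 in WT. SOD1 replicate 1 was the highest array and the other SOD1 arrays lay within the WT range. The difference was 0.32 ± 0.17, with an interval of -0.06 to 0.69 (limma, adjusted p = 0.427). Ctsa encodes cathepsin A, which also holds beta-galactosidase and neuraminidase in a stable complex. It read 13.82, 13.46 and 13.54 in SOD1 and 13.76, 13.67 and 13.80 in WT, and the difference was -0.13 ± 0.17, with an interval of -0.52 to 0.25. Its second probe set differed by -0.18 ± 0.40. For the probe sets of highest signal of Ctsb, Ctsd, Ctsa and Ctsf, the upper bounds of the intervals (0.31, 0.69, 0.25 and 0.41) all lay under the lower bound of Ctss (1.96).

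Cst3, the inhibitor, was read by 1 probe set, with 16.17, 16.04 and 16.26 in SOD1 and 15.94, 15.97 and 15.49 in WT. The groups did not overlap, by a margin of 0.07 on the log2 scale, and WT replicate 3 was the lowest array. The means were 16.16 ± 0.11 in SOD1 and 15.80 ± 0.27 in WT (SD, n = 3). The difference was 0.36 ± 0.14, 1.28-fold with an interval of 1.04 to 1.58 (limma, unadjusted p = 0.0238, adjusted p = 0.264), and it was 0.20 without WT replicate 3 and 0.58 with median centring.

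**Figure D3:**
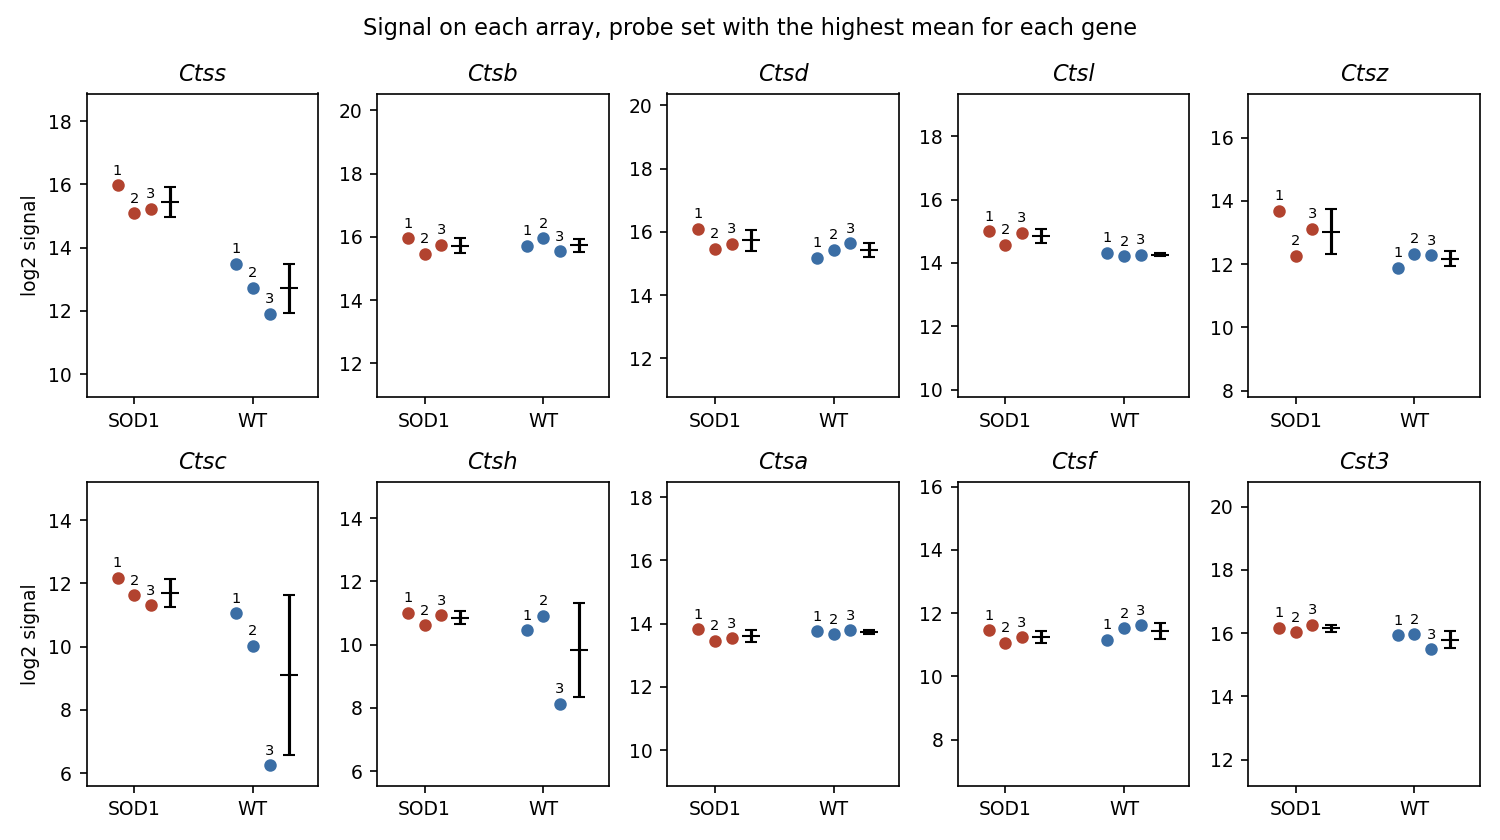
Log2 signal on each array (points, numbered by replicate) for the probe set of highest mean of each of the 10 genes, with the mean and SD of 3 arrays beside each group. Every panel spans the same number of log2 units. Ctss is separated between the groups, and WT replicate 3 stands low for Ctsc and Ctsh.

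**Figure D4:**
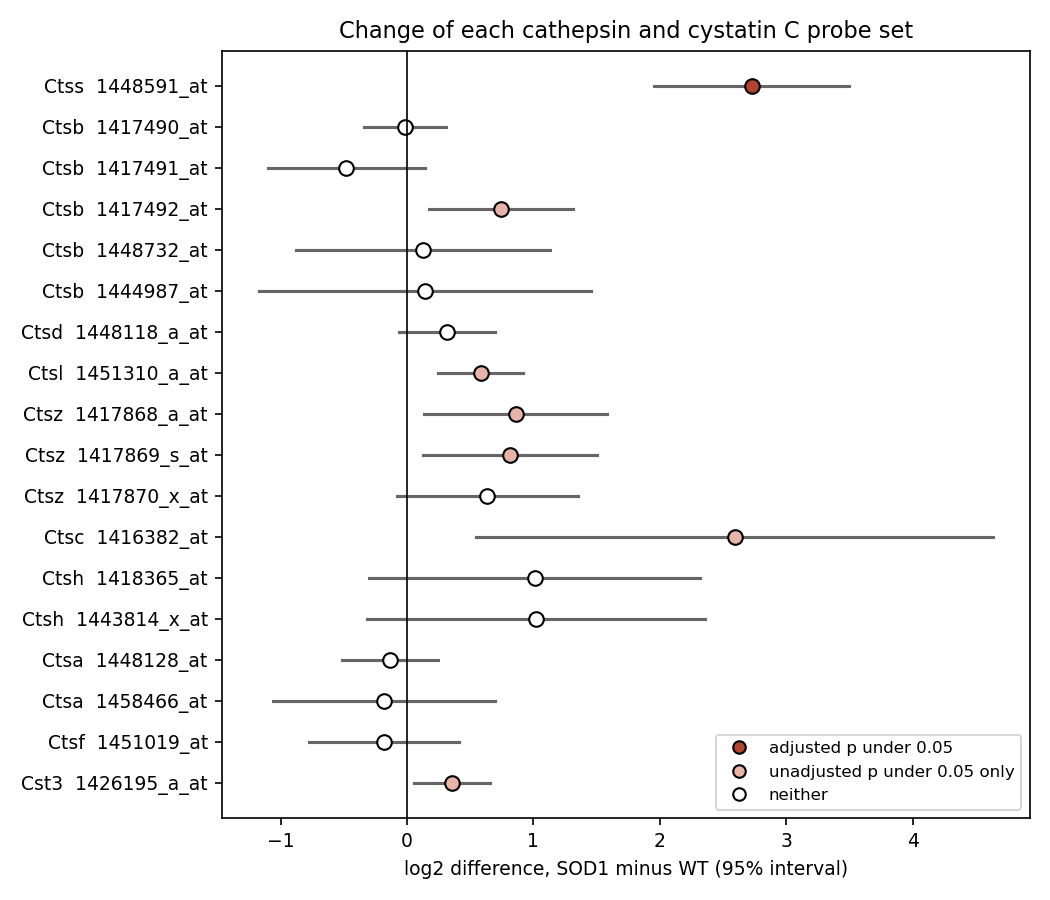
Log2 difference, SOD1 minus WT, with its 95% interval (x axis) for the 18 member probe sets tested (rows). The filled dark point, Ctss, passed the test over all probe sets, and the 6 pale points had an unadjusted p under 0.05 only.

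Ctss and Cst3 were next set against each other within each array, since cystatin C inhibits cathepsin S. Ctss minus Cst3 was -0.19, -0.94 and -1.03 in SOD1 and -2.45, -3.23 and -3.58 in WT (log2), so Ctss stood higher relative to Cst3 on every SOD1 array. The difference between the groups was 2.37, with an exact two-sided permutation p of 0.1, the smallest that 3 against 3 arrays allow, and an adjusted p of 0.3 over the 9 cathepsins compared with Cst3. Ctsb and Ctsa also did not overlap between the groups, in the opposite direction, at -0.37 and -0.49 (exact permutation p = 0.1 for each, adjusted p = 0.3). The Ctsb groups all but touched, at -0.2208 on SOD1 replicate 1 and -0.2201 on WT replicate 1. For Ctsa the nearest arrays were -2.35 on SOD1 replicate 1 and -2.29 on WT replicate 2. Set against Cst3 in the same way, 2.13% of the other probe sets tested did not overlap with SOD1 higher and 23% with SOD1 lower. The remaining values were 2.23 for Ctsc, 0.65 for Ctsh, 0.50 for Ctsz, 0.22 for Ctsl, -0.04 for Ctsd and -0.54 for Ctsf, with exact permutation p between 0.2 and 0.8. None could pass the threshold in a design of this size.

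Across arrays, the SOD1 arrays had a common order over most members and the WT arrays did not. SOD1 replicate 1 was the highest of the 6 arrays for 8 of the 10 genes, and SOD1 replicate 2 was the lowest SOD1 array for 9 of the 10. The same was not counted over all probe sets, so this order is not shown to be particular to the members. WT replicate 3 was the lowest of the 6 for 4 genes, Ctss, Ctsc, Ctsh and Cst3, but the highest WT array for 3, Ctsd, Ctsa and Ctsf. The mean of the microglial markers had the values 11.97, 11.13 and 11.14 in SOD1 and 9.57, 9.38 and 8.08 in WT (log2 signal), with SOD1 replicate 1 the highest and WT replicate 3 the lowest array.

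All 19 microglial and myeloid markers had a probe set on the array, and 18 were tested. Of their 25 probe sets, 25 had a positive estimate, 20 had an unadjusted limma p under 0.05, and those of 5 genes rose over all probe sets. The median log2 difference was 2.00 over these probe sets. Their summed signal ranged from 85801 to 175721 on the SOD1 arrays and from 8067 to 37891 on the WT arrays. None of the 18 was at background on all WT arrays, but Itgam and some Laptm5 probe sets were on 2 of them. The WT means of Gpr34 (6.88), Itgam (7.03), P2ry12 (7.19) and Laptm5 probe sets (6.91 and 7.25) lay below the filter level of 7.38. These were tested only through their SOD1 level, which favours a positive estimate. Markers of other cells differed too. Of 28 astrocyte probe sets, 23 were above 0 and 16 were higher at an unadjusted limma p under 0.05, and those of Aqp4 and Gfap rose over all probe sets (summed signal 249717 to 255379 in SOD1 and 207864 to 217131 in WT). Of 26 oligodendrocyte probe sets, 24 were above 0 and 12 were higher at an unadjusted p under 0.05, but 0 over all probe sets (260748 to 282252 in SOD1 and 195207 to 228653 in WT). Estimates were below 0 for 19 of 20 endothelial and mural probe sets, where those of Acta2 and Flt1 fell over all probe sets (8707 to 25650 in SOD1 and 33687 to 75222 in WT), against 50.5% of all probe sets tested. They were also below 0 for 10 of 10 meningeal fibroblast probe sets, of which 4 had an unadjusted limma p under 0.05 and 0 passed (8055 to 61290 in SOD1 and 26413 to 97811 in WT). These estimates ran from -3.48 for Col3a1 to -0.12 for Pdgfra, and a second Col3a1 probe set gave -0.17. The SOD1 means of the first Col3a1 probe set (6.99), Col1a1 (7.07), the mural gene Tagln (6.51) and 1 endothelial Abcb1a probe set (7.33) lay below the filter level of 7.38. These were thus tested only through their WT level. Of 16 motor neuron probe sets, 10 were below 0, 5 were lower and 1 higher at an unadjusted p under 0.05, and 0 passed (480678 to 532132 in SOD1 and 528791 to 591618 in WT). Of 9 genes of blood and infiltrating leukocytes on the array, 3 were tested. Their 3 probe sets were below 0 and 0 passed (137 to 452 in SOD1 and 499 to 15340 in WT). Their SOD1 means (S100a8 6.55, Camp 6.66, Ngp 6.72) lay below the filter level of 7.38, so they were tested only through their WT level. WT replicate 2 read 12.64, 12.11 and 12.15, against 6.97 to 7.86 on the other WT arrays, so the direction rests on the filter and 1 array. The part of any of these markers in the cathepsin values was not tested.

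**Figure D5:**
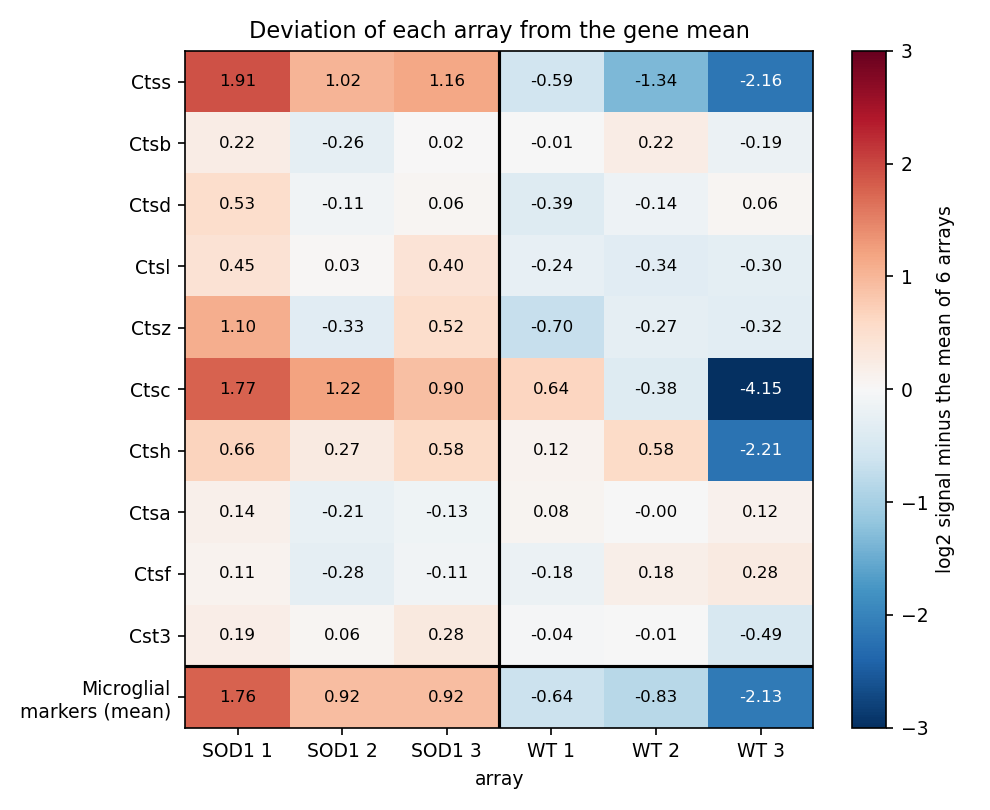
Log2 signal of each array minus the mean of the 6 arrays (colour and number) for the 10 genes and, in the bottom row, for the mean of 18 microglial markers. The row of Ctss runs from 1.91 on SOD1 replicate 1 to -2.16 on WT replicate 3 and the row of the markers from 1.76 to -2.13 on the same arrays, while the rows of Ctsb, Ctsa and Ctsf stay within 0.28 of 0.

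By Pearson correlation over the 6 arrays, the genes outside the family with the pattern most like that of Ctss were Itgb2, a leukocyte integrin subunit (r = 0.997), C1qa of complement (0.995), Gfap, the astrocyte filament (0.992), Odc1, ornithine decarboxylase (0.992), and Tyrobp, a myeloid signalling adaptor (0.991). Those most like Cst3 were Rab34 (0.997), the metallothionein gene Mt1 (0.996), Mal, a myelin protein gene (0.995), Scd3 (0.994) and Taf1 (0.994). With 6 arrays in 2 groups such values are easily reached, and 136 probe sets had a correlation above 0.95 with Ctss and 158 with Cst3.

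Of the 13 other cathepsin genes on the array, 3 were tested and 0 of their 4 probe sets passed. Ctse, which encodes cathepsin E, an aspartic protease of immune cells, read 11.67, 9.27 and 10.31 in SOD1 and 7.59, 6.42 and 6.32 in WT. The groups did not overlap and 2 WT arrays were at background, and the difference was 3.64 ± 0.64 (limma, adjusted p = 0.057), which passed in 4 other settings. Its WT mean of 6.78 was also below the filter level of 7.38 (log2), and the difference was 3.15 with a pseudocount of 64 and 3.85 with 1. Ctso gave 0.92 ± 0.26 by its probe set of higher signal (limma, adjusted p = 0.16) and 0.87 ± 0.82 by the other. The WT mean of that other probe set (7.15) lay below the filter level, so it was tested only through its SOD1 level. It was at background on 1 SOD1 and 2 WT arrays. Ctsk, the collagen-degrading cathepsin of osteoclasts, gave 0.70 ± 0.47 (limma, adjusted p = 0.523).

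Among 4 other inhibitor genes tested, 1 of 5 probe sets rose. That was Cst7, which encodes cystatin F, an inhibitor kept inside the endosomes and lysosomes of immune cells, where cathepsin C is a known target. It read 13.16, 11.47 and 9.53 in SOD1 and 6.07, 7.58 and 5.42 in WT, with 2 WT arrays at background, a difference of 5.03 ± 0.83 (limma, adjusted p = 0.0454). Its WT mean of 6.36 lay below the filter level of 7.38, so Cst7 was tested only through its SOD1 level, and the size of the difference depended on the pseudocount, at 4.35 with 64 and 5.39 with 1. The SOD1 arrays spanned 3.63 among themselves, and the call was lost in 11 of the 19 other settings, among them the term for Xist (3.18, adjusted p = 0.168) and each array left out except SOD1 replicate 3. Cstb, the cytosolic inhibitor cystatin B, gave 0.36 ± 0.13 and 0.58 ± 0.22 on 2 probe sets, both at an unadjusted limma p under 0.05 but not adjusted (adjusted p = 0.238 and 0.263). Cst6, cystatin E/M, gave -0.19 ± 0.28 and Fetub, fetuin B, 0.42 ± 0.66. The WT mean of Fetub (7.34) also lay below the filter level of 7.38, so it was tested only through its SOD1 level.

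No probe set of the wider lysosomal lists passed the test. Of 63 probe sets of other lysosomal hydrolases, 1.59% were higher and 7.94% lower at an unadjusted limma p under 0.05, against 7.1% and 7.56% of all. The median difference was -0.06. With 1 probe set a gene, that of highest signal, it was -0.15, and 12 of 36 genes were above 0. Gaa, which encodes the acid glucosidase that degrades glycogen, gave -1.23 ± 0.21 and -0.97 ± 0.24 on 2 probe sets (adjusted p = 0.0569 and 0.131), and Tpp1, a lysosomal aminopeptidase, -0.66 ± 0.19 and -0.20 ± 0.24. Asah1, acid ceramidase, gave 0.47 ± 0.17 and Galc, galactosylceramidase, -1.95 ± 0.74. The Galc estimate was 0.28 with the term for Xist and -3.06 without SOD1 replicate 3 (limma, adjusted p = 0.852 and 0.0345), and Gaa passed in 6 other settings.

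Of 62 probe sets of lysosomal membrane and acidification genes, 16.1% were higher and 6.45% lower at an unadjusted limma p under 0.05, against 7.1% and 7.56% of all. The median was 0.10. With 1 probe set a gene, that of highest signal, it was 0.04, and 19 of 30 genes were above 0. Lamp2, a major membrane protein of the lysosome, was split. One probe set gave -1.31 ± 0.23 (12.81 ± 0.19 in SOD1 and 14.12 ± 0.42 in WT, SD), and 3 gave 0.81 ± 0.18, 1.30 ± 0.33 and 0.91 ± 0.23 (limma, adjusted p of 0.057, 0.111, 0.137 and 0.137), and the first of these passed in 6 other settings. Npc2, which carries cholesterol out of the lysosome, gave 0.61 ± 0.13, 0.31 ± 0.11 and 0.18 ± 0.31. The probe sets of the proton pump subunit gene Atp6v0a1 differed in sign, at -0.96 ± 0.23 for that of highest signal and 0.50 ± 0.50, -0.71 ± 0.76 and 0.55 ± 0.83 for the others. Atp6ap2, which encodes a pump accessory protein, gave 0.57 ± 0.18 on 1 probe set and 0.11 ± 0.09 and 0.10 ± 0.08 on the 2 of higher signal. Of 31 probe sets of sorting and transcription genes, 25.8% were higher and 9.68% lower, against 7.1% and 7.56% of all, and the median was 0.31. With 1 probe set a gene, that of highest signal, the median was -0.05, and 8 of 17 genes were above 0. Grn, which encodes progranulin, gave 1.35 ± 0.32, 1.20 ± 0.35 and 0.75 ± 0.30, and Gga3, a sorting adaptor, -0.74 ± 0.24. Vps35 of the retromer gave 1.26 ± 0.37 on 1 probe set and 0.28 ± 0.15 on that of higher signal. Sort1, sortilin, was also split, at 1.07 ± 0.38 and 0.83 ± 0.44 on 2 probe sets and -0.39 ± 0.22 on that of highest signal (12.77 in SOD1 and 13.16 in WT).

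The promoter matches and the array values can be set side by side for the 8 genes with an entry. The 4 with CACGTG had log2 differences of 0.32 (Ctsd), 0.58 (Ctsl), -0.13 (Ctsa) and -0.18 (Ctsf), of which the Ctsl region is in doubt as a promoter. The 4 without it had 2.73 (Ctss), 2.59 (Ctsc), 0.86 (Ctsz) and 0.36 (Cst3). With 8 genes this is a description and was not tested.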

How the data were processed

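Signal was measured on 1 array per RNA sample, 3 SOD1 and 3 WT. Per the labels, total RNA was amplified in 2 T7 rounds, which reads transcripts from their 3' end. The authors deposited intensities on a linear scale, with 1 value for a probe set on an array. Their 2% trimmed mean was 2500.02 on each array, so the authors had scaled them. The algorithm is not given in the sources used here. Of 45101 probe sets, 64 controls were left out, and 34945 of the rest had 1 symbol, 932 several and 9160 were not listed. Symbols were checked by Entrez identifier against RefSeq (GRCm38.p6), where 34741 matched and 0 changed.

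Arrays were quantile normalised, 16 was added, which understates changes of low genes, and log2 was taken. A filter at the 40th percentile of mean log2 level left 27022 probe sets. These were fitted with limma 3.58.1 in R 4.3.3 (lmFit and eBayes, trend on), and two-sided p-values were adjusted by Benjamini-Hochberg over all of them, with a threshold of 0.05. On simulated data the step recovered 11.2% of log2 changes of 1, 41.2% of 2, 67.6% of 3 and 79.2% of 4. There, 4.78% of calls were false. A probe set that did not pass may thus still differ by such an amount. Background is the level that 95% of the 27 bacterial control probe sets on the same array did not exceed. Levels of different probe sets are not comparable with each other.

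For each gene the probe set with the highest mean is given in full, with every other at an unadjusted p under 0.05, and of each other list up to 4 genes with the smallest p, with their other tested probe sets, which were added after their values were seen. The members, lists, rules and tests were chosen with earlier results of these data known. Alternatives were the scaling, pseudocount, filter, variance model, array weights, replicate block, a term for Xist and each array left out. Further ones were probe sets ending in _a_at, _s_at or _x_at left out, the threshold and, for the within-array differences, averaging the probe sets of a gene. Motifs were searched in RefSeq promoters. Figures were drawn with matplotlib 3.10.9.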

Additional observations from a re-analysis of the deposited data

How the results depend on the processing

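Of 56 single probe sets, the 18 members and every tested probe set of the genes named from the other lists, 48 kept their sign in every setting; the exceptions were 3 of Ctsb, 2 of Atp6v0a1, and 1 each of Npc2, Fetub and Galc. The cause of these changes was not tested. Depth is not recorded on arrays, and 3 per group limits what can be called.

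The number of member probe sets that rose was 1 as reported and 0 with no variance trend, with the term for Xist and at a threshold of 0.01, and ranged from 0 to 1 when 1 array was left out (0 without SOD1 replicate 1, SOD1 replicate 2 or WT replicate 2). The number that fell was 0 in every setting. With no variance trend 0 of all probe sets passed, and likewise 0 without WT replicate 2. At an unadjusted limma p under 0.05 with no variance trend, 3 of the 18 members were higher, against 5.86% of all. Over all probe sets, 0 were called higher without SOD1 replicate 2 and 2 without SOD1 replicate 1. The members' count of 0 with no variance trend or with 1 array left out is thus not particular to them. This does not hold for the term for Xist, where 65 probe sets passed, 15 of them higher, against 50 and 17 as reported. Over all probe sets the count of calls was 50 as reported and ranged from 0 to 106 over the settings, the last with the filter at the 60th percentile.

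In the other lysosomal, cathepsin and cystatin lists, 1 probe set rose as reported, against 0 with values as deposited, a pseudocount of 1, the filter at the 60th percentile, no or a robust variance trend, the term for Xist or a threshold of 0.01, 2 with a pseudocount of 64, array weights or a threshold of 0.1, and 3 with the replicate block; with 1 array left out it was 0 to 1. The number that fell was 0 as reported, 2 with a pseudocount of 64, no filter, the filter at the 60th percentile, array weights or a threshold of 0.1, and 1 with the replicate block; with 1 array left out it was 0 to 1.

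Signs turned as follows (log2). The first Ctsb probe set was 0.10 with values as deposited, 0.21 with median centring and 0.016 with the term for Xist, and spanned -0.13 to 0.11 with 1 array left out (0.11 without SOD1 replicate 2, 0.09 without WT replicate 2). With 1 array left out, the fourth Ctsb probe set spanned -0.19 to 0.65 (below 0 without SOD1 replicate 1, SOD1 replicate 3 or WT replicate 1) and the fifth -0.40 to 0.75 (below 0 without SOD1 replicate 3 or WT replicate 2). Fetub was -0.70 and Galc 0.28 with the term for Xist. With 1 array left out, 2 Atp6v0a1 probe sets spanned -1.20 to 0.24 (above 0 without SOD1 replicate 3) and -0.45 to 1.02 (below 0 without WT replicate 1), and the third Npc2 probe set -0.080 to 0.35 (below 0 without WT replicate 3). With 1 array left out, Ctsd minus Cst3 spanned -0.23 to 0.22 (above 0 without SOD1 replicate 2, SOD1 replicate 3 or WT replicate 3) and Ctsh minus Cst3 -0.047 to 1.11 (below 0 without WT replicate 3).

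Over all probe sets tested, deviations of arrays of the same replicate number correlated at 0.03, -0.04 and -0.01. Such a correlation cannot exclude a pairing that affects only some probe sets. With the replicate block, Ctss had adjusted p = 0.000639 (limma, 2.73 ± 0.22), and 76 probe sets passed in all.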
